A study of Peniophora incarnata with 12 samples.

Results

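The response of a wood-decay fungus to poplar wood was measured against growth on PDA, the agar medium that served as the control, across all genes with 1 FPKM or more in at least 3 of the 6 libraries of these groups. FPKM counts the sequenced fragments of a gene, scaled by the length of the gene and by the size of the library. Of the 16059 genes in the table, 13614 met this rule and 2445 did not. The fungus was Peniophora incarnata, wild type strain T-7, grown as mycelium for 30 days in the dark without shaking. The poplar wood group (PW) was grown on sieved wood powder as the solid medium, and the PDA group on potato dextrose agar, with 3 biological replicates each. Chinese fir wood (FW) and rice straw (RS), with 3 replicates each, came from the same 12-library series, prepared as stranded poly(A)-selected mRNA libraries, and are used only to show where poplar wood differed from other plant material. Poplar wood is a single hardwood material here, so its values cannot be assigned to hardwoods in general, and the wood powder differed from PDA in texture and nutrients alike.

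White-rot fungi such as Peniophora remove lignin, the aromatic polymer that encloses the cellulose and hemicellulose of wood. They do so with secreted haem peroxidases that oxidise lignin units or manganese, and with laccases, copper enzymes that oxidise phenols. Hydrolases and lytic polysaccharide monooxygenases then release sugars from the polysaccharides, whereas potato dextrose agar offers free glucose and starch. Names and functions of genes come from the annotation columns of the table, which give a match to a known protein and not a tested function. Genes that share a description are told apart by identifier. Reads of near-identical copies may have been split between them, so the level of a single copy is uncertain.

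The libraries held 25804766, 23398461 and 25527090 reads on poplar wood and 24075495, 24766171 and 25570109 reads on PDA, worked back from the FPKM values. At the median coding length of 1422 bp, 33.3 to 36.7 reads gave 1 FPKM. Poplar wood cultures spread far more than PDA cultures. The median SD of a gene on the log2 scale was 0.47 on poplar wood and 0.15 on PDA, and the SD was the larger one on poplar wood for 86.2% of genes. Poplar wood replicate 1 stood apart, with a Pearson correlation across genes, which are not independent replicates, of 0.926 to replicate 2 and 0.865 to replicate 3, against 0.950 between replicates 2 and 3 and 0.971 to 0.988 among PDA libraries. Its correlation to the Chinese fir wood libraries, at 0.849 to 0.897, was of the same size. PDA replicate 2 lay close to a sum of the reads of PDA replicates 1 and 3 weighted 0.49 and 0.50, with a chi-square per gene of 4.92 against 23.6 and 25.3 for the other PDA libraries, while the labels give it as a separate biological replicate. In the same way Chinese fir wood replicate 1 lay close to a weighted sum of replicates 2 and 3 (0.52 and 0.69, chi-square per gene 5.75 against 47.3 and 35.3 for the others) and rice straw replicate 3 to one of replicates 1 and 2 (0.54 and 0.62, 7.51 against 33.8 and 26.9). If such a library is not a separate culture, its group holds fewer than 3 independent cultures and the p-values are too small. Many counts over all genes and over gene lists are therefore also given without PDA replicate 2, Chinese fir wood replicate 1 or rice straw replicate 3. On poplar wood replicate 2 was likewise the library best fitted by the others, with weights of 0.34 and 0.58 for replicates 1 and 3. That fit was far less close, with a chi-square per gene of 151 against 362 and 197 for replicates 1 and 3. Values of 3 libraries are listed below in the order of replicates 1, 2 and 3. The label mycelium was checked against 33 tested genes of hyphal growth (actin, tubulins, elongation factor 1-alpha, chitin synthases), whose summed level was 4612, 7849.7 and 9450 FPKM on poplar wood and 6793, 6955 and 7074 FPKM on PDA. Genes named after spores or fruiting bodies, 14 of 14 tested, summed to 412, 402 and 331 FPKM on poplar wood and 327, 325 and 333 FPKM on PDA.

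These are bulk cultures, in which a difference in the number of cells expressing a gene and one in its RNA per cell cannot be told apart. Growth on poplar wood changed 2991 of the 13614 genes, or 22.0%, when a change was called at an adjusted p below 0.05 and a log2 fold change of at least 1 in either direction. Levels rose on poplar wood for 929 genes (6.82%) and fell for 2062 genes (15.1%). Fold changes, also written as changes, rises or falls on the log2 scale, are differences of log2(FPKM + 1), poplar wood minus PDA, so the changes of weakly expressed genes are understated. The change was at least 2 on this scale for 270 of the genes that rose and 632 of those that fell, and at least 4 for 42 and 54. The groups did not overlap for 6580 genes (48.3%), with every poplar wood library higher for 17.1% and every one lower for 31.2% of the tested genes. The median of all genes was -0.19. Median-of-ratios scaling, which sets that median to 0.00, gave 1335 rises (9.81%) and 1608 falls (11.8%), so the share of rises among calls was 31.1% as deposited and 45.4% after scaling. Leaving out PDA replicate 1, 2 or 3 lowered the calls to 1696, 1486 and 1933. Omission of poplar wood replicate 1, 2 or 3 gave 3474, 2314 and 3616. Without poplar wood replicate 1 and PDA replicate 2 together there were 2928 calls, of which 2333 were shared with the full comparison in the same direction. This joint omission, also used for gene lists below, was chosen after the data were seen.

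**Figure D1:**
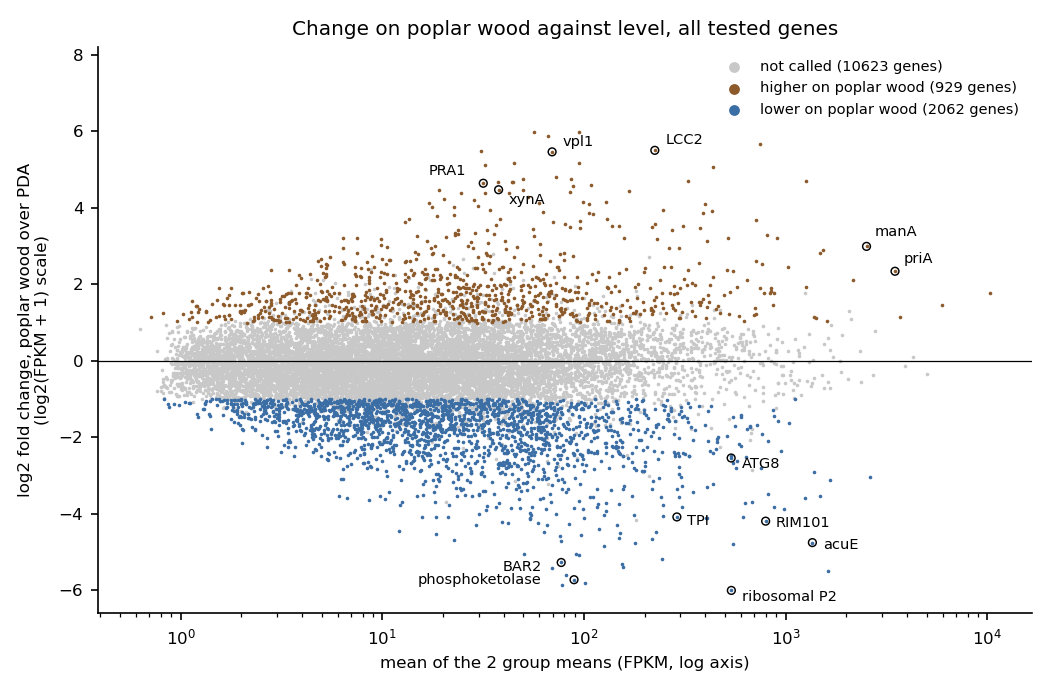
Log2 fold change of each of the 13614 tested genes (poplar wood over PDA, on the log2(FPKM + 1) scale, vertical axis) against the mean of both group means (FPKM, log axis), with 929 genes that rose in brown, 2062 that fell in blue and the rest in grey. Circles mark genes named in the text, from the laccase LCC2 at 5.50 to the ribosomal protein P2 at -6.0.

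The lists of genes by function moved in different directions. Each count of a list against PDA below is to be read beside 6.82% of all genes that rose and 15.1% that fell. Rises were frequent in ribosome biogenesis, with 48.8% of the tested members against 6.82% of all genes. Among lists of more than 10 tested members, falls were most frequent in glycolysis with 16 of 20, glutathione transferases with 64.0% (15 of 24 without a member that passed the filter through PDA alone) and the pentose phosphate pathway with 12 of 20, read against 15.1% of all genes. In oxidative phosphorylation, the respiratory chain and ATP synthase, 1 of 76 tested genes fell and 0 rose. That gene was ATP17 (A09236), a subunit of the ATP synthase, with 4.93, 9.69 and 15.2 FPKM on poplar wood and 30.8, 26.5 and 24.7 FPKM on PDA. Its call was lost without poplar wood replicate 2 and without any 1 of the PDA replicates (adjusted p of 0.0714 to 0.0974). Without poplar wood replicate 3 the count was 7 falls and 0 rises, and without replicate 1 it was 3 falls and 2 rises.

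**Figure D2:**
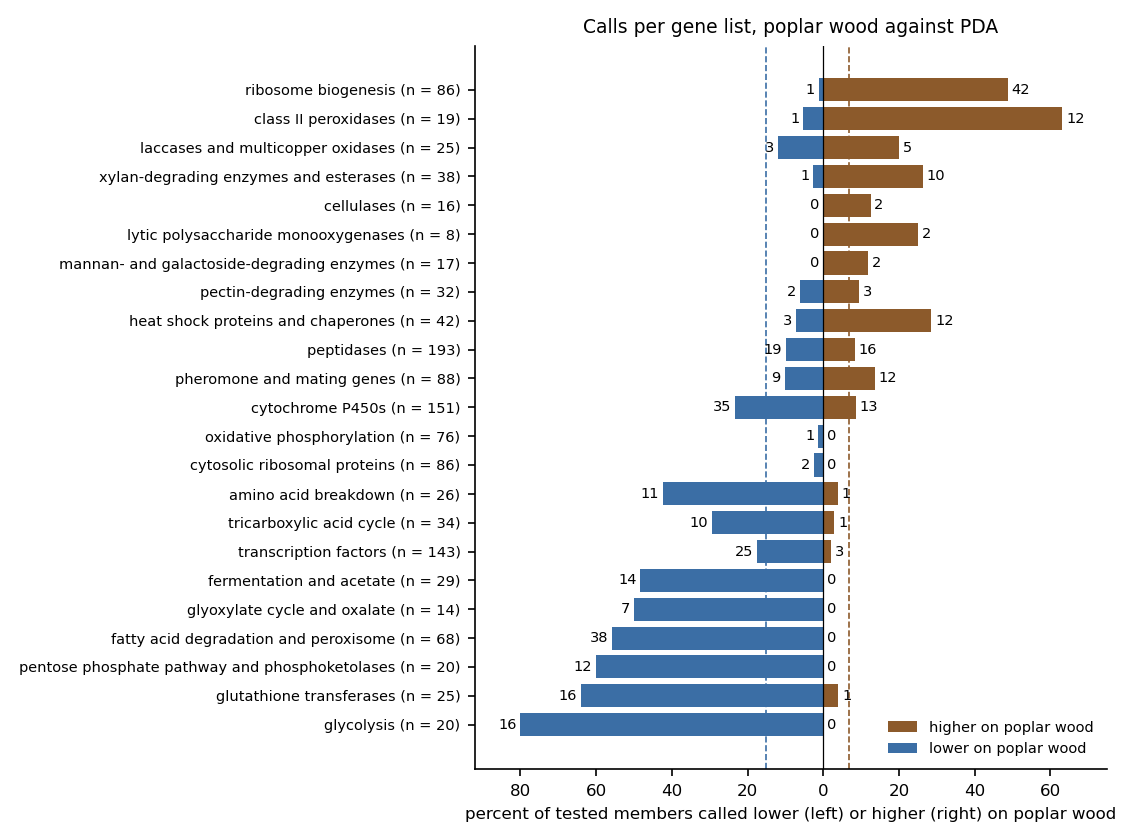
Percent of the tested members of each gene list that were called higher (brown bars to the right of 0) or lower (blue bars to the left of 0) on poplar wood than on PDA, with the number of called genes beside each bar and the number tested after each name. Dashed lines mark the shares over all tested genes, 6.82% higher and 15.1% lower, and the bars run from ribosome biogenesis with 42 rises to glycolysis with 16 falls.

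Class II peroxidases, the manganese and versatile peroxidases that attack lignin, included large rises on poplar wood. Of 30 such genes, 19 were tested, 12 rose and 1 fell, with a median log2 fold change of 2.14 against -0.19 over all genes. Of the 19, 5 passed the filter through the poplar wood libraries alone and had to lie higher there. Among the other 14, which reached 1 FPKM in at least 1 PDA library, 8 rose and 1 fell, with a median of 1.30. The versatile peroxidase vpl1 (A19457), which oxidises manganese and lignin units, had 26.6, 320.4 and 67.4 FPKM on poplar wood and 0.313, 1.18 and 1.51 FPKM on PDA. All poplar wood libraries lay above all PDA libraries, and replicate 2 lay far above the other poplar wood libraries. The log2 fold change was 5.46 (SE 0.82, adjusted p = 0.00403). The versatile peroxidase vps1 (A14046) followed the same order, with 19.9, 198 and 43.6 FPKM on poplar wood and 1.33, 0.912 and 1.51 FPKM on PDA. It rose by 4.67 (SE 0.74, adjusted p = 0.00481). A manganese peroxidase, mnp3 (A13193), chosen after its values were seen, had 7.74, 80.3 and 26.4 FPKM on poplar wood and 0.238, 0.270 and 0.149 FPKM on PDA and rose by 4.46 (SE 0.71, adjusted p = 0.00496). It was 1 of the 5 that passed the filter through poplar wood alone and had to lie higher there.

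Poplar wood replicate 2 was the highest poplar wood library for 7 of the 12 peroxidases that rose, and replicate 1 the lowest for 7. The summed level of the tested and untested members was 197, 1016 and 303 FPKM on poplar wood and 54.9, 64.0 and 73.1 FPKM on PDA. On Chinese fir wood the same sum was 96.5, 101 and 86.6 FPKM and on rice straw 84.4, 62.2 and 72.0 FPKM, so that every poplar wood library lay above every library of the other substrates. Without PDA replicate 1, 2 or 3, or without poplar wood replicate 1 and PDA replicate 2 together, 8 peroxidases rose and 0 fell. The gene that fell, another vpl1 copy (A14932), had 2.98, 6.78 and 4.27 FPKM on poplar wood and 10.8, 9.40 and 11.4 FPKM on PDA. Its log2 fold change was -1.07 (SE 0.29, adjusted p = 0.0321), and leaving out any library but poplar wood replicate 2 ended the call, with log2 fold changes of -1.15 to -0.84 and adjusted p of 0.0287 to 0.112.

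Laccases and other multicopper oxidases split by gene rather than moving together. Of 25 tested, 5 rose, 3 fell and 17 were not called, with a median of -0.55. LCC2 (A15469) had 946, 191 and 188 FPKM on poplar wood and 2.80, 7.79 and 10.1 FPKM on PDA. Replicate 1 stood highest on poplar wood, and the groups lay far apart (log2 fold change 5.50, SE 0.70, adjusted p = 0.00233). The laccase POX2 (A15535), chosen after its values were seen, had 474, 140.1 and 151 FPKM on poplar wood and 9.41, 19.1 and 31.0 FPKM on PDA, and rose by 3.52 (SE 0.58, adjusted p = 0.00548). LCC4 (A17335), chosen in the same way, varied less, with 94.1, 70.1 and 57.1 FPKM on poplar wood and 8.81, 9.28 and 7.86 FPKM on PDA. It rose by 2.93 (SE 0.25, adjusted p = 0.000782). Poplar wood replicate 1 was the highest poplar wood library for all 5 laccases that rose, while it was the highest for 1 of the 12 peroxidases that rose.

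Other laccase genes lay lower on poplar wood. The laccase LCC2 copy A15534 had 11.2, 6.48 and 3.13 FPKM on poplar wood and 46.8, 30.2 and 16.6 FPKM on PDA, a fall of 2.04 (SE 0.50, adjusted p = 0.0225) that was lost without poplar wood replicate 2 and without PDA replicates 1 or 2 (adjusted p of 0.0725 to 0.0836). Without PDA replicate 2 no laccase fell, and without PDA replicate 1 only 1 fell. The most abundant laccase on PDA, the LCC2 copy A06358, chosen after its values were seen, had 925, 239 and 81.6 FPKM on poplar wood and 132, 175 and 215 FPKM on PDA. Its groups overlapped, and it did not pass the test (change 0.62, SE 0.79, adjusted p = 0.593). The summed laccase level was 3163, 1102 and 654 FPKM on poplar wood and 686, 690.2 and 684 FPKM on PDA, so poplar wood replicate 3 lay below the PDA libraries.

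Enzymes that supply the peroxidases with hydrogen peroxide or accept electrons from sugars showed small counts in both directions. Of 27 tested auxiliary oxidases and reductases 2 rose (7.41%) and 4 fell (14.8%), near the 6.82% and 15.1% of all genes. The counts were 1 and 2 without PDA replicate 1 or 2. Pyranose dehydrogenase pdh1 (A17479), which oxidises sugars, had 17.6, 32.3 and 25.5 FPKM on poplar wood and 5.48, 5.81 and 4.51 FPKM on PDA (change 2.03, SE 0.28, adjusted p = 0.00302). Another pyranose dehydrogenase, pdh3 (A02730), had 3.71, 4.91 and 4.70 FPKM on poplar wood and 25.2, 18.3 and 14.4 FPKM on PDA and fell by 1.87 (SE 0.27, adjusted p = 0.00351). These genes were thus opposite in direction, with no overlap between groups for either. Cellobiose dehydrogenase CDH-1 (A14209), which oxidises cellobiose, was chosen after its values were seen. It had 3.62, 1.94 and 1.62 FPKM on poplar wood and 17.6, 15.6 and 12 FPKM on PDA and fell by 2.27 (SE 0.29, adjusted p = 0.00239). The only tested dye-decolorizing peroxidase, dyp1 (A14508), had 4.08, 8.21 and 17.6 FPKM on poplar wood and 27.1, 49.7 and 68.1 FPKM on PDA, a fall of 2.27 (SE 0.53, adjusted p = 0.0191) that was lost without poplar wood replicate 2 and without PDA replicates 2 or 3 (adjusted p of 0.0687 to 0.0705).

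**Figure D3:**
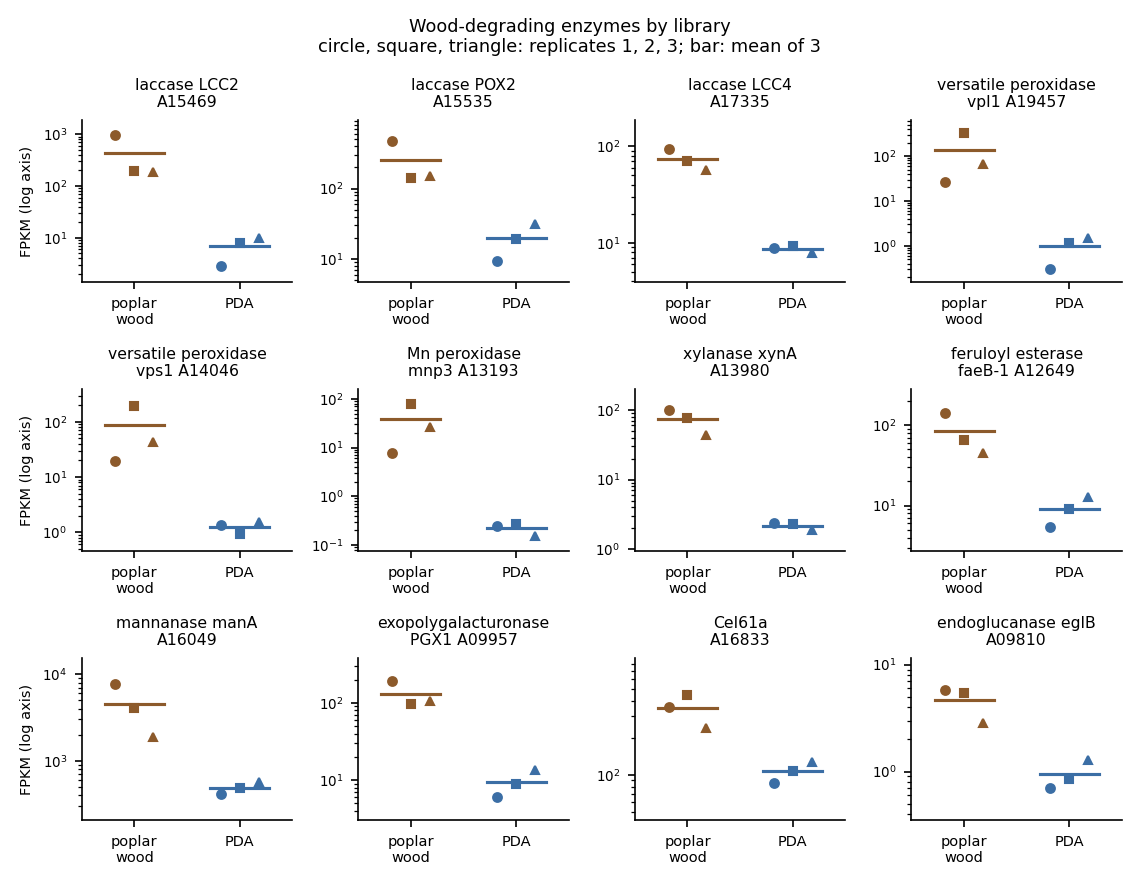
Level in each library (FPKM, log axis) of 12 genes of lignin and polysaccharide breakdown, with poplar wood libraries in brown on the left of each panel and PDA libraries in blue on the right. Circles, squares and triangles mark replicates 1, 2 and 3 and bars the mean of 3, and the groups do not overlap in any of the 12 panels, while the peroxidases peak in poplar wood replicate 2 and the laccases LCC2, POX2 and LCC4 in replicate 1.

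Among enzymes of xylan, the main hemicellulose of hardwood, 10 of 38 tested genes rose and 1 fell on poplar wood. The shares were 26.3% and 2.63%, beside 6.82% and 15.1% of all genes. The endoxylanase xynA (A13980), which cuts the xylan backbone, had 99.7, 76.3 and 43.8 FPKM on poplar wood and 2.36, 2.29 and 1.89 FPKM on PDA. It rose by 4.47 (SE 0.33, adjusted p = 0.000589), with the groups far apart. The feruloyl esterase faeB-1 (A12649), which frees phenolic acids from xylan, had 142, 66.1 and 44.7 FPKM on poplar wood and 5.44, 9.20 and 12.9 FPKM on PDA and rose by 2.97 (SE 0.47, adjusted p = 0.00486). Both genes described as 4-O-methyl-glucuronoyl methylesterase, an enzyme that cleaves bonds between lignin and xylan, rose. They were named after their values were seen: A09557 had 18.9, 15 and 14.3 FPKM on poplar wood and 1.67, 2.82 and 1.99 FPKM on PDA (log2 fold change 2.44), and A15368 rose by 2.24. The xylanase xynB (A13983) went the other way, with 3.07, 4.46 and 3.83 FPKM on poplar wood and 12.1, 12.3 and 11.9 FPKM on PDA, and fell by 1.46 (SE 0.22, adjusted p = 0.00383). Leaving out libraries gave 7 rises without PDA replicate 1 or 2, 8 without PDA replicate 3 and 9 to 11 without a poplar wood replicate.

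Calls were few among cellulose-degrading hydrolases and among the oxidative enzymes of cellulose, where 2 abundant genes rose. Of 16 tested cellulases 2 rose and 0 fell, a share of rises of 12.5% beside 6.82% of all genes, with a median of 0.52 against -0.19 over all genes. Every poplar wood library lay above every PDA library for 6 of the 16 and below for 2, beside 17.1% and 31.2% of all genes. Of the 16 cellulases, 1 passed the filter through poplar wood alone, had to lie higher there and was not called. The count was 5 rises and 0 falls once scaled by median of ratios. Without poplar wood replicate 3 there were 6 rises, and 1 without poplar wood replicate 2 or any 1 of the PDA replicates. The endoglucanase eglB (A09810) had 5.78, 5.44 and 2.82 FPKM on poplar wood and 0.705, 0.856 and 1.29 FPKM on PDA, a rise of 1.51 (SE 0.28, adjusted p = 0.00818). The other, chosen after its values were seen, was the exoglucanase cbh1 (A03231), which had 4.12, 3.58 and 1.96 FPKM on poplar wood and 1.10, 1.20 and 0.880 FPKM on PDA, with a call that was lost when any library but poplar wood replicate 3 was left out (adjusted p of 0.0351 to 0.0901, log2 fold change 0.84 to 1.05). Of 8 tested lytic polysaccharide monooxygenases, copper enzymes that cut cellulose chains by oxidation, 2 rose and 0 fell, and 2 rose without any 1 of the 6 libraries, with 1 fall without poplar wood replicate 2. The median of the 8 was 0.14, below that of the cellulases. Every poplar wood library lay above every PDA library for 3 of the 8 and below for 2. Cel61a (A16833) had 358, 445 and 239.8 FPKM on poplar wood and 85.7, 107 and 127 FPKM on PDA and rose by 1.67 (SE 0.30, adjusted p = 0.00737). The other that rose was the Cel61a copy A00617, named after its values were seen, with 278, 399 and 213 FPKM on poplar wood and 58.7, 70.1 and 87.8 FPKM on PDA and a log2 fold change of 2.0. Of 12 tested beta-glucosidases, which split cellobiose into glucose, 1 rose and 1 fell. The gene bglL (A13729) had 6.08, 6.80 and 3.53 FPKM on poplar wood and 28.6, 24.1 and 19.3 FPKM on PDA and fell by 1.97 (SE 0.29, adjusted p = 0.00384). BGL1B (A06070) rose by 1.22 (adjusted p = 0.017), a call lost without poplar wood replicate 2 or any 1 of the PDA replicates (adjusted p of 0.0589 to 0.0762). Without poplar wood replicates 1 and 3, in turn, 2 and 3 beta-glucosidases rose.

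Mannan, a minor hemicellulose of hardwood, is cut by endomannanases, and the gene manA (A16049) for such an enzyme ranked among the 10 most abundant transcripts on poplar wood. It had 7694, 4033 and 1893 FPKM on poplar wood and 414, 490.0 and 569 FPKM on PDA and rose by 2.99 (SE 0.48, adjusted p = 0.00523). The levels on poplar wood ranged widely, yet the lowest lay above all PDA libraries. It was 1 of 2 genes that rose among 17 tested mannan- and galactoside-degrading enzymes, with 0 that fell. The other, the beta-galactosidase lacB (A18359), was named after its values were seen. It had 251, 68.5 and 44.3 FPKM on poplar wood and 14, 14.3 and 14.4 FPKM on PDA, and its rise of 2.61 was lost without any 1 of the PDA replicates (adjusted p of 0.056 to 0.0603). Pectin enzymes gave 3 rises (9.38%) and 2 falls (6.25%) among 32 tested, beside 6.82% and 15.1% of all genes. There were 4 falls when poplar wood replicate 2 was left out, 1 when PDA replicate 1 was and 0 when PDA replicate 2 was. The exopolygalacturonase PGX1 (A09957), which releases galacturonic acid from pectin chain ends, had 191, 97.3 and 105 FPKM on poplar wood and 6.11, 8.92 and 13.7 FPKM on PDA and rose by 3.64 (SE 0.37, adjusted p = 0.0012). The pectate lyase plyA (A10874), chosen after its values were seen, had 39.9, 22.8 and 37.2 FPKM on poplar wood and 1.16, 1.25 and 0.445 FPKM on PDA and rose by 4.12 (SE 0.31, adjusted p = 0.000589). Breakdown of starch, glycogen and trehalose gave 0 rises and 1 fall among 14 tested, the fall being glycogen phosphorylase GPH1 (A02226) with 79.1, 104 and 53.7 FPKM on poplar wood and 235, 233 and 225 FPKM on PDA (change -1.59, SE 0.28, adjusted p = 0.00695).

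Poplar wood was then set against the other plant materials, using the same poplar wood libraries and 1 fit of the 4 groups. That fit takes 1 spread per gene from all 12 libraries and so understates the spread of most genes on poplar wood. Against Chinese fir wood 3380 of 13974 genes were called (24.2%), 2439 higher (17.5%) and 941 lower (6.73%) on poplar wood. Against rice straw 4025 were called (28.8%), 2008 higher (14.4%) and 2017 lower (14.4%). Without Chinese fir wood replicate 1 there were 3092 calls, and without rice straw replicate 3 there were 3788. Of the 19 peroxidases, 11 were higher and 0 lower than on Chinese fir wood, and 12 higher and 0 lower than on rice straw, or 9 without Chinese fir wood replicate 1 and 11 without rice straw replicate 3. The gene vpl1 (A19457) was higher than on Chinese fir wood by 3.59 (adjusted p = 0.00112) and than on rice straw by 4.59 (adjusted p = 0.000148). LCC2 (A15469) differed from rice straw, by 4.84 (adjusted p = 3.94e-05), and was not called against Chinese fir wood, at -0.16 (adjusted p = 0.841).

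Counts of xylan enzymes and cellulases lay nearer the shares of all genes against Chinese fir wood than against rice straw. Of the 38 xylan enzymes 8 were higher (21.1%) and 4 lower (10.5%) than on Chinese fir wood, beside 17.5% and 6.73% of all genes. Against rice straw 1 xylan enzyme was higher (2.63%) and 16 lower (42.1%), beside 14.4% of all genes each way. Of the 16 cellulases 2 were higher and 2 lower than on Chinese fir wood (12.5% each), and 1 higher (6.25%) and 10 lower (62.5%) than on rice straw. Without Chinese fir wood replicate 1 or rice straw replicate 3 each of these counts of xylan enzymes and cellulases stayed within 1 gene. The xylanase xynA (A13980) was higher than on Chinese fir wood by 2.48 (adjusted p = 0.000994) and was not called against rice straw, at 0.31 (adjusted p = 0.59). The endoglucanase eglB (A09810) was lower than on rice straw by 2.99 on the log2 scale (adjusted p = 6e-06, log2 fold change -2.99). The monooxygenase Cel61a (A16833) was higher on poplar wood than on either, by 2.03 against Chinese fir wood (adjusted p = 5.52e-05) and by 1.49 against rice straw (adjusted p = 0.000257). Of the 49 genes of the fixed naming rule that rose against PDA, 18 were also higher than on both other materials and 0 lower than on both. Of the 52 that fell, 18 were lower than on both and 0 higher than on both. The rule took genes by level or change in the same poplar wood libraries, so these counts are no independent support. Of all 929 genes that rose, 554 were higher and 44 lower than on Chinese fir wood, and 614 and 29 than on rice straw. Of all 2062 that fell, 385 were lower and 138 higher than on Chinese fir wood, and 958 and 70 than on rice straw.

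Most tested genes of glycolysis, the breakdown of glucose to pyruvate, fell on poplar wood. Of 20 tested 16 fell and 0 rose, with a median of -2.07, and the summed level was 618, 890.3 and 941 FPKM on poplar wood and 3294, 3182 and 2954 FPKM on PDA. Triosephosphate isomerase TPI (A14475) had 9.40, 51.0 and 58.1 FPKM on poplar wood and 578, 564 and 472 FPKM on PDA, a fall of 4.08 (SE 0.63, adjusted p = 0.00441). Glucose-6-phosphate isomerase gpi1 (A04960), chosen after its values were seen like the other glycolysis genes that follow, had 3.38, 3.38 and 5.45 FPKM on poplar wood and 72.5, 55.1 and 40.5 FPKM on PDA and fell by 3.48 (SE 0.30, adjusted p = 0.000777). The aldolase FBA1 (A16638), which splits fructose bisphosphate, had 8.45, 44.9 and 42.9 FPKM on poplar wood and 194, 189 and 189.7 FPKM on PDA and fell by 2.84 (SE 0.59, adjusted p = 0.0129). Hexokinase HXK2 (A02688), which phosphorylates glucose, had 24.0, 40.7 and 48.7 FPKM on poplar wood and 139.6, 140.5 and 143 FPKM on PDA and fell by 1.93 (SE 0.29, adjusted p = 0.00416). Poplar wood replicate 1 was the lowest library for 13 of the 16 genes that fell. Without any 1 of the PDA replicates 11 fell, without poplar wood replicate 1 16 fell, and without poplar wood replicate 1 and PDA replicate 2 together 15 fell.

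The pentose phosphate pathway, which supplies NADPH and pentoses, gave 12 falls and 0 rises among 20 tested genes, or 8 falls without poplar wood replicate 2 and 7, 7 and 9 without PDA replicates 1, 2 and 3. Transaldolase TAL1 (A05186) had 402, 208 and 102 FPKM on poplar wood and 1034, 969 and 884 FPKM on PDA (change -2.23, SE 0.47, adjusted p = 0.0135), a call lost without PDA replicate 1 or 2 (adjusted p of 0.0518 to 0.0544). The largest falls in the pathway belonged to a pair of genes described as probable phosphoketolase, which cleaves sugar phosphates to acetyl phosphate. A18876 had 0.383, 2.22 and 1.97 FPKM on poplar wood and 324, 174 and 33.4 FPKM on PDA, and A19231 had 0.638, 2.15 and 1.61 FPKM on poplar wood and 246, 136 and 30.1 FPKM on PDA. PDA replicate 1 stood highest and PDA replicate 3 lowest for both, and all PDA libraries lay above all poplar wood libraries. They fell by 5.72 (SE 0.80, adjusted p = 0.00316) and 5.42 (SE 0.72, adjusted p = 0.0027). Of 14 tested genes of pentose sugar catabolism 2 rose and 1 fell. The D-xylulose reductase xdhA (A08065), which acts in xylose use, had 5.90, 12.6 and 9.96 FPKM on poplar wood and 39.8, 37.4 and 35.3 FPKM on PDA and fell by 1.93 (SE 0.29, adjusted p = 0.0042). The 2 genes that rose were described as ARD1, D-arabinitol dehydrogenase (A05193 and A14191), and neither was called without poplar wood replicate 2 or without any 1 of the PDA replicates (adjusted p of 0.0572 to 0.142).

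**Figure D4:**
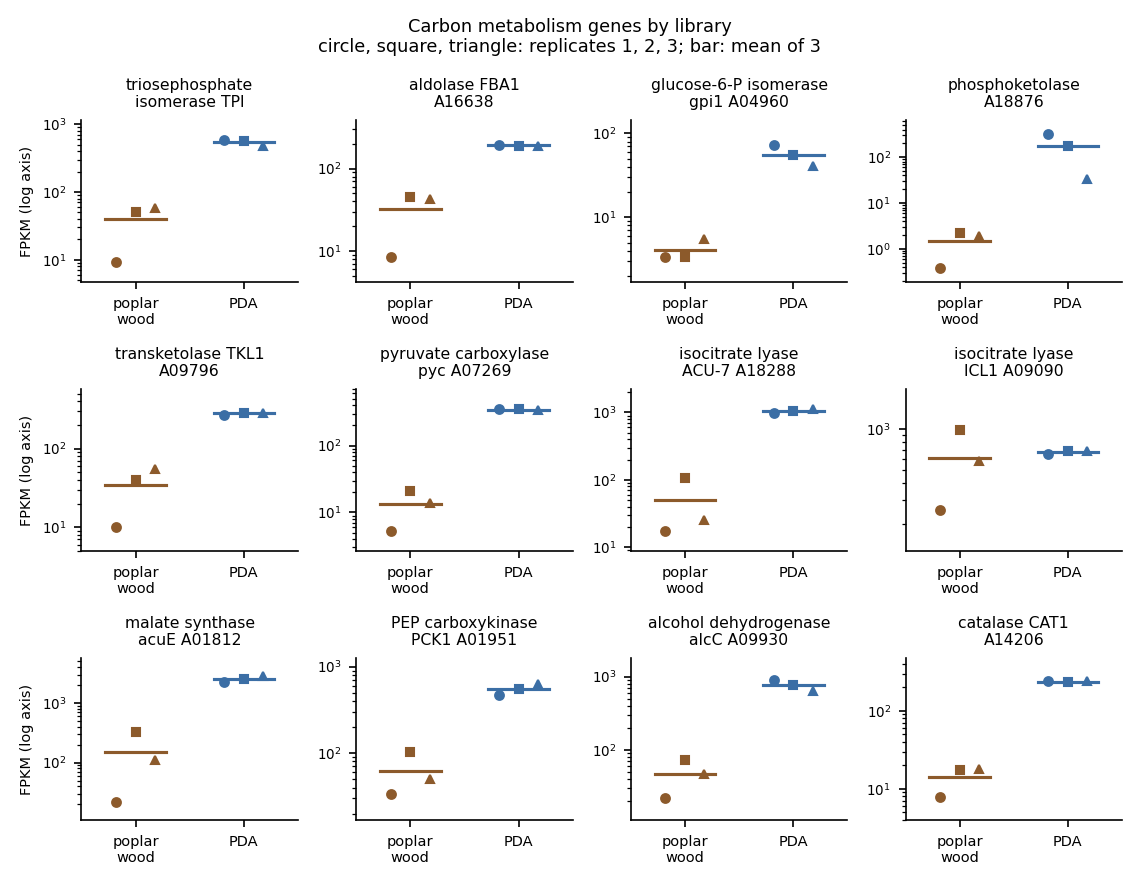
Level in each library (FPKM, log axis) of 12 genes of carbon metabolism, with poplar wood libraries in brown on the left of each panel and PDA libraries in blue on the right. Circles, squares and triangles mark replicates 1, 2 and 3 and bars the mean of 3, and the groups do not overlap except for the isocitrate lyase ICL1 (A09090), which ranged over 252 to 991 FPKM on poplar wood and 654 to 691 FPKM on PDA.

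Alcohol and acetate metabolism gave 14 falls and 0 rises among 29 tested genes, or 9 falls without PDA replicate 2. Alcohol dehydrogenase alcC (A09930), which interconverts ethanol and acetaldehyde, had 22.1, 73.2 and 46.4 FPKM on poplar wood and 899.8, 759.7 and 627 FPKM on PDA and fell by 4.12 (SE 0.42, adjusted p = 0.00121). Both tested acetyl-CoA synthetases named ACS-1, which activate acetate and were named here after their values were seen, fell, by 3.24 (A00011) and 2.92 (A05984). Of 34 tested genes of the tricarboxylic acid cycle and its entry 10 fell and 1 rose, or 6 and 0 without PDA replicate 2. Of those that fell, 1 passed the filter through PDA alone and had to lie lower on poplar wood. A pyruvate carboxylase named pyc (A07269), which refills the cycle with oxaloacetate, had 5.31, 20.8 and 13.9 FPKM on poplar wood and 351, 347 and 338 FPKM on PDA. It fell by 4.77 (SE 0.44, adjusted p = 0.000944), and citrate synthase cit-1 (A15933), chosen after its values were seen, fell by 3.88 (SE 0.40, adjusted p = 0.0012). The gene that rose, kgd2 (A17229), encodes a subunit of the 2-oxoglutarate dehydrogenase complex and had 91.4, 89.5 and 82.5 FPKM on poplar wood and 42.8, 40.1 and 36.2 FPKM on PDA (change 1.13, SE 0.20, adjusted p = 0.00754), a call lost without PDA replicate 2 (adjusted p = 0.0587).

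The glyoxylate cycle, which lets cells build sugars from acetyl-CoA, and gluconeogenesis also held genes that fell. Of 14 tested genes of the glyoxylate cycle and oxalate metabolism 7 fell and 0 rose, with a range of 5 to 8 over the omissions of 1 library. Malate synthase acuE (A01812) had 21.9, 326 and 113 FPKM on poplar wood and 2253, 2570.1 and 2851 FPKM on PDA and fell by 4.75 (SE 0.85, adjusted p = 0.0076). The isocitrate lyase ACU-7 (A18288) had 17.5, 107 and 25.3 FPKM on poplar wood and 968, 1038 and 1119 FPKM on PDA and fell by 4.80 (SE 0.61, adjusted p = 0.00236). The isocitrate lyase ICL1 copy A09090, chosen after its values were seen, had 252, 991 and 586 FPKM on poplar wood and 654, 691 and 686 FPKM on PDA and did not pass the test (change -0.36, adjusted p = 0.602). On poplar wood this copy was therefore the most abundant of the isocitrate lyases in every library, while on PDA ACU-7 was. Both tested gluconeogenesis genes fell, and did so without any 1 of the 6 libraries. Phosphoenolpyruvate carboxykinase PCK1 (A01951) had 33.7, 102 and 50.8 FPKM on poplar wood and 464, 553 and 629.6 FPKM on PDA (change -3.26, SE 0.40, adjusted p = 0.00213). Fructose-1,6-bisphosphatase FBP1 (A16026) had 32.8, 37.7 and 32.1 FPKM on poplar wood and 163, 181 and 180.3 FPKM on PDA (change -2.32, SE 0.20, adjusted p = 0.000787).

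Peroxisomes, the organelles of fatty acid beta-oxidation, gave the largest number of falls among the lists. Of 68 tested genes of fatty acid degradation and peroxisomes 38 fell and 0 rose, 33 to 42 fell without any 1 of the 6 libraries, and 40 fell without poplar wood replicate 1 and PDA replicate 2 together. The summed level was 2626, 2823 and 2549 FPKM on poplar wood and 7465, 8768 and 9727 FPKM on PDA. The peroxisomal catalase CAT1 (A14206), which removes the hydrogen peroxide of beta-oxidation, was chosen after its values were seen. It had 7.93, 17.3 and 17.8 FPKM on poplar wood and 239, 234 and 239 FPKM on PDA and fell by 4.03 (SE 0.32, adjusted p = 0.000686). The thiolase POT1 (A08701), which makes the last cut of beta-oxidation, had 348, 363 and 243 FPKM on poplar wood and 926, 1241 and 1453 FPKM on PDA and fell by 1.92 (SE 0.27, adjusted p = 0.0035). Both tested acyl-CoA oxidases named POX1, which start the cycle in peroxisomes and were named here after their values were seen, fell, by 2.47 (A15408) and 2.65 (A16337). The peroxisome assembly factors PEX2 (A08258), both PEX13 copies and both PEX5 copies, chosen in the same way, fell by 1.34 to 2.18 on the log2 scale. In fatty acid synthesis 2 of 18 tested genes fell and 0 rose, with 4 falls without poplar wood replicate 1 or 3, and no gene was called without poplar wood replicate 2 or without any 1 of the PDA replicates.

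Genes that use methanol, a product of pectin and lignin demethylation, included falls whose calls depended on single libraries. Of 6 tested alcohol oxidases, formate dehydrogenases and related genes 4 fell and 0 rose, while 0 fell without PDA replicate 1 or 2 and 1 fell without PDA replicate 3. Formate dehydrogenase FDH1 (A02035) had 133, 159.6 and 34.1 FPKM on poplar wood and 322, 331 and 333 FPKM on PDA (change -1.86, SE 0.55, adjusted p = 0.0427). The alcohol oxidase AOD1 (A05729), chosen after its values were seen, had 1.05, 20.1 and 26.3 FPKM on poplar wood and 155, 184 and 216 FPKM on PDA, a difference of -4.12 (SE 0.91, adjusted p = 0.0159). Poplar wood replicate 1 was far below the others for AOD1, and replicate 3 was the lowest for FDH1. Without any 1 of the PDA replicates the adjusted p was 0.112 to 0.116 for FDH1 and 0.0507 to 0.0556 for AOD1. Against Chinese fir wood 4 of these 6 genes were higher on poplar wood and 0 lower, also without Chinese fir wood replicate 1, and FDH1 (A02035) was higher by 3.75 (adjusted p = 7.81e-05). Against rice straw 1 was higher and 4 lower on poplar wood, or 0 and 3 without rice straw replicate 3. Of all genes 17.5% were higher and 6.73% lower than on Chinese fir wood, and 14.4% each way against rice straw.

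Peptidases, which release amino acids from protein, included some of the largest rises. Of 193 tested peptidases 16 rose and 19 fell, shares of 8.29% and 9.84% beside 6.82% and 15.1% of all genes. The count that rose was 10 without poplar wood replicate 2, 10, 9 and 12 without PDA replicates 1, 2 and 3, and 20 and 23 without poplar wood replicates 1 and 3. The count that fell was 11, 9 and 12 without PDA replicates 1, 2 and 3. The aspergillopepsin A03170, an acid protease, had 36.6, 112 and 35 FPKM on poplar wood and 0, 0.344 and 0.285 FPKM on PDA, where 3 reads in replicate 1 would give 0.152 FPKM. It rose by 5.48 (SE 0.46, adjusted p = 0.000686), but it passed the filter through poplar wood alone and had to lie higher there. Another aspergillopepsin, A05374, had 136, 235 and 256 FPKM on poplar wood and 4.99, 8.03 and 10 FPKM on PDA and rose by 4.59 (SE 0.34, adjusted p = 0.000589). The serine carboxypeptidase ARB_01345 (A01865), which removes amino acids from chain ends, had 107, 71.7 and 109 FPKM on poplar wood and 2.29, 3.44 and 4.47 FPKM on PDA and rose by 4.47 (SE 0.29, adjusted p = 0.000467). Among those that fell, the tripeptidyl peptidase sed2 (A06284), chosen after its values were seen, had 10.9, 11.3 and 11.4 FPKM on poplar wood and 75.9, 73.0 and 66.7 FPKM on PDA, a fall of 2.58 (SE 0.20, adjusted p = 0.000656). Against Chinese fir wood 38 of the tested peptidases (19.7%) were higher and 8 (4.15%) lower on poplar wood, beside 17.5% and 6.73% of all genes. They numbered 27 and 6 without Chinese fir wood replicate 1 and 24 and 5 without replicate 3.

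Of 55 tested transporters of amino acids, peptides, ammonium and urea 4 rose (7.27%) and 11 fell (20%), shares not far from the 6.82% and 15.1% of all genes. Of those that fell, 1 passed the filter through PDA alone and had to lie lower on poplar wood. The peptide transporter ptr2 (A01680), chosen after its values were seen, had 965, 788 and 823 FPKM on poplar wood and 149, 167 and 179 FPKM on PDA and rose by 2.37 (SE 0.21, adjusted p = 0.000845). The dicarboxylic amino acid permease DIP5 (A10761) had 57.3, 95.7 and 47.8 FPKM on poplar wood and 573, 538 and 498 FPKM on PDA and fell by 3.04 (SE 0.29, adjusted p = 0.00103). Both genes named amt1, ammonium transporters, fell, by 2.16 (A11682) and 2.44 (A04971), and were chosen after their values were seen. Leaving out poplar wood replicate 2 gave 1 rise and 7 falls, and leaving out poplar wood replicate 3 gave 7 and 12. For PDA replicates 1, 2 and 3 in turn the counts were 2 rises and 7 falls, 1 and 6, and 1 and 6. In amino acid breakdown 11 of 26 tested genes fell and 1 rose, and 8 to 14 fell over the omissions of 1 library. The delta-1-pyrroline-5-carboxylate dehydrogenase pruA (A02934), of proline breakdown, had 34.9, 54.2 and 40 FPKM on poplar wood and 159, 162 and 167 FPKM on PDA (change -1.92, SE 0.24, adjusted p = 0.00213). The gene that rose, the L-amino-acid oxidase lox (A14260), had 742, 1342 and 2042 FPKM on poplar wood and 312, 382 and 429 FPKM on PDA (change 1.77, SE 0.38, adjusted p = 0.0149), a call lost without poplar wood replicate 2 and without PDA replicates 1 or 2 (adjusted p of 0.0561 to 0.0649).

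Many genes of ribosome biogenesis, the processing of ribosomal RNA and assembly of ribosomes in the nucleolus, rose on poplar wood. Of 86 tested 42 rose and 1 fell, with a median of 1.24 against -0.19 over all genes; median-of-ratios scaling gave 60 rises and 1 fall. Nucleolar protein nop56 (A18360), part of the particles that modify ribosomal RNA, had 489.9, 673 and 746 FPKM on poplar wood and 92.8, 101 and 125 FPKM on PDA and rose by 2.56 (SE 0.25, adjusted p = 0.00108). The ribosomal RNA processing factors utp4 (A04260) and rrp5 (A04528), chosen after their values were seen, rose by 2.43 and 2.39. Poplar wood replicate 1 was the lowest poplar wood library for 40 of the 42 genes and replicate 2 the highest for 34. The summed level was 3030.3, 6148 and 5803 FPKM on poplar wood and 1811, 1999 and 2215 FPKM on PDA. The count that rose was 64 without poplar wood replicate 1 and 62 when PDA replicate 2 was also left out, but 23 without poplar wood replicate 2 and 18, 18 and 28 without PDA replicates 1, 2 and 3. Of these 86 genes 70 were higher and 0 lower than on Chinese fir wood, and 69 higher and 0 lower than on rice straw, or 68 without Chinese fir wood replicate 1 and 69 without rice straw replicate 3. Of all genes 17.5% were higher than on Chinese fir wood and 14.4% higher than on rice straw.

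Few genes of the ribosomal proteins themselves were called. Of 86 tested cytosolic ribosomal proteins 0 rose and 2 fell, with 4 rises without poplar wood replicate 1, with a median of 0.26, or 0.48 once scaled by median of ratios. Both genes that fell were described as 60S acidic ribosomal protein P2, a stalk protein of the large subunit. A00646 had 12.7, 22.5 and 11.3 FPKM on poplar wood and 1425, 1059 and 696 FPKM on PDA, the largest fall among described genes (log2 fold change -6.0, SE 0.36, adjusted p = 0.000462). A00645, named after its values were seen, had 14.3, 16.9 and 9.16 FPKM on poplar wood and 92.3, 80.9 and 57.5 FPKM on PDA and fell by 2.44 (SE 0.30, adjusted p = 0.0022). Elongation factor 1-alpha, which brings transfer RNA to the ribosome, differed by copy. The abundant copy TEF1 (A18418) had 2356, 5291 and 6257 FPKM on poplar wood and 3766, 3979 and 4106 FPKM on PDA and did not pass the test (change 0.11, adjusted p = 0.853), while the copy A02129 had 53.4, 63.6 and 29.9 FPKM on poplar wood and 343, 276 and 228 FPKM on PDA and fell by 2.55 (SE 0.33, adjusted p = 0.00246).

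Among heat shock proteins and chaperones, which help proteins fold, 12 of 42 tested rose and 3 fell. The endoplasmic reticulum chaperone bipA (A15303), chosen after its values were seen, had 417, 532 and 563 FPKM on poplar wood and 171, 174 and 173 FPKM on PDA and rose by 1.53 (SE 0.21, adjusted p = 0.00329). The small heat shock protein hsp16 copy A16534 had 4.47, 2.96 and 2.14 FPKM on poplar wood and 371, 187 and 11.6 FPKM on PDA, with a spread between PDA libraries that matched that of the phosphoketolases in order. Its fall of 4.56 (SE 1.13, adjusted p = 0.024) was lost without poplar wood replicates 2 or 3 and without PDA replicates 1 or 2 (adjusted p of 0.0549 to 0.0822). The count that rose was 9 without poplar wood replicates 2 or 3, 6, 3 and 7 without PDA replicates 1, 2 and 3, and 16 without poplar wood replicate 1. Falls among chaperones numbered 1 when poplar wood replicate 2, poplar wood replicate 3 or PDA replicate 1 was left out, 0 when PDA replicate 2 was, and 7 when PDA replicate 3 was. Among genes of the secretory pathway 2 of 71 tested rose and 4 fell, or 0 and 2 without any 1 of the PDA replicates, 0 and 3 without poplar wood replicate 2 and 1 and 7 without poplar wood replicate 3. Among proteasome subunits 1 of 50 rose and 0 fell, but 2 rose and 10 fell without poplar wood replicate 3. The proteasome gene that rose, PRE7 (A09150), had 496, 208 and 258 FPKM on poplar wood and 139, 118 and 104 FPKM on PDA (change 1.31, SE 0.35, adjusted p = 0.0302), a call lost without poplar wood replicate 1 or any 1 of the PDA replicates (adjusted p of 0.0115 to 0.107, log2 fold change 0.95 to 1.42).

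**Figure D5:**
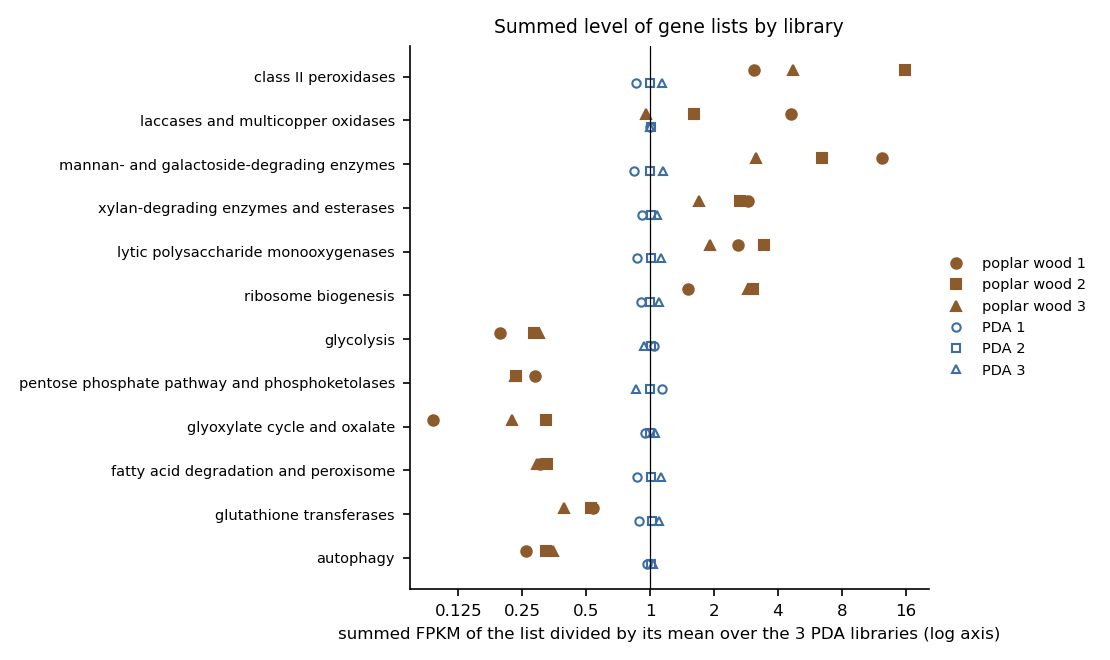
Summed FPKM of all members of 12 gene lists in each poplar wood library (filled brown symbols) and PDA library (open blue symbols), divided by the mean of the 3 PDA libraries (log axis). Poplar wood replicates 1, 2 and 3 are circles, squares and triangles, and the groups do not overlap except for the laccases, where poplar wood replicate 3 with 654 FPKM lies below the PDA libraries at 684 to 690.2 FPKM.

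Autophagy, the recycling of cell content in the vacuole, gave 5 falls and 0 rises among 19 tested genes. The share of falls was 26.3% beside 15.1% of all genes, and 14 genes were not called. Every poplar wood library lay higher for 2 of the 19 and lower for 11, beside 17.1% and 31.2% of all genes. The summed level was 551, 688 and 738 FPKM on poplar wood and 2052, 2133 and 2176 FPKM on PDA. A large part of that sum came from ATG8, the protein that coats autophagic membranes. The ATG8 copy A12834 had 142, 180.3 and 150.5 FPKM on poplar wood and 872, 914 and 958 FPKM on PDA and fell by 2.54 (SE 0.21, adjusted p = 0.000686), and the copy A02530, chosen after its values were seen, fell by 1.99. Without PDA replicates 2 or 3 there were 3 falls. In DNA replication and the cell cycle 2 of 116 tested genes rose (1.72%) and 14 fell (12.1%), both below the 6.82% and 15.1% of all genes, with 3, 2 and 6 falls without PDA replicates 1, 2 and 3, 6 without poplar wood replicate 2 and 7 without poplar wood replicate 1 and PDA replicate 2 together. The cyclin PCL9 (A15971), a partner of the phosphate-responsive kinase PHO85 in yeast, had 393, 319.6 and 272 FPKM on poplar wood and 885, 881 and 834 FPKM on PDA and fell by 1.41 (SE 0.22, adjusted p = 0.00485). The gene A01312, described as proliferating cell nuclear antigen, the sliding clamp of DNA replication, had 253, 250.0 and 103 FPKM on poplar wood and 64.2, 70.7 and 76.9 FPKM on PDA (change 1.40, SE 0.37, adjusted p = 0.0307), a rise lost without poplar wood replicate 2 or any 1 of the PDA replicates (adjusted p of 0.0814 to 0.109).

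Most tested glutathione transferases, which couple glutathione to reactive compounds, fell on poplar wood, with 16 falls and 1 rise among 25 tested. The gene A16531, described as ustS, had 0, 0.994 and 1.72 FPKM on poplar wood and 36.3, 48.7 and 47.7 FPKM on PDA, where 3 reads in poplar wood replicate 1 would give 0.150 FPKM. It fell by 4.67 (SE 0.39, adjusted p = 0.000686). The transferase gst2 (A18278) had 59.4, 59.7 and 45.6 FPKM on poplar wood and 158, 225 and 278 FPKM on PDA and fell by 1.96 (SE 0.28, adjusted p = 0.00331). The count that fell was 10 without PDA replicate 2 and 11 to 16 over the other omissions of 1 library. Cytochrome P450s, which hydroxylate small molecules, gave 13 rises and 35 falls among 151 tested, or 9 and 24 without PDA replicate 2. The shares were 8.61% and 23.2%, beside 6.82% and 15.1% of all genes, so the rises lay near the share of all genes. Of the 151, 3 passed the filter through poplar wood alone and 4 through PDA alone, which fixed their direction. Among the other 144 P450 genes 11 rose and 32 fell. CYP208 (A07914) had 917, 1308 and 579 FPKM on poplar wood and 74.3, 93.0 and 120.1 FPKM on PDA and rose by 3.22 (SE 0.35, adjusted p = 0.00143). The P450 FG08079 copy A18116, chosen after its values were seen, had 118, 165 and 75.5 FPKM on poplar wood and 6.55, 8.18 and 5.75 FPKM on PDA and rose by 3.88 (SE 0.32, adjusted p = 0.000686).

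Antioxidant enzymes also moved in both directions, with 4 rises and 8 falls among 36 tested, and 2 rises without any library but poplar wood replicate 1. Falls numbered 6 without PDA replicate 2 and 12 without poplar wood replicate 3. The mitochondrial manganese superoxide dismutase A02697, which removes superoxide, had 54.3, 105 and 74.3 FPKM on poplar wood and 738, 744 and 742 FPKM on PDA and fell by 3.29 (SE 0.28, adjusted p = 0.000723). The copper-zinc enzyme SOD1 (A03232) had 53.8, 88.2 and 144 FPKM on poplar wood and 31.5, 40.4 and 41.8 FPKM on PDA, a rise of 1.21 (SE 0.37, adjusted p = 0.0474) that was lost without poplar wood replicates 2 or 3 or any 1 of the PDA replicates (adjusted p of 0.059 to 0.159). Genes of iron, copper and zinc handling gave 5 rises and 5 falls among 44 tested, or 3 and 2, 2 and 2, and 2 and 3 without PDA replicates 1, 2 and 3, and 3 and 4 without poplar wood replicate 2. The metal reductase frp2 (A10781), which reduces iron at the cell surface, had 1458, 1306 and 1062 FPKM on poplar wood and 444, 464 and 481 FPKM on PDA and rose by 1.45 (SE 0.22, adjusted p = 0.00416). Another gene named frp2 (A07927) had 1.73, 4.53 and 0.568 FPKM on poplar wood and 152, 83.2 and 11.1 FPKM on PDA, a fall of 4.23 (SE 0.93, adjusted p = 0.0158) that was lost without PDA replicates 1 or 2 (adjusted p of 0.0515 to 0.0575). Sugar transporters gave 2 rises (7.41%) and 4 falls (14.8%) among 27 tested, near the 6.82% and 15.1% of all genes. Of the sugar transporters that fell, 1 passed the filter through PDA alone and had to lie lower on poplar wood. The lactose permease LAC12 (A09461) had 108, 155 and 176 FPKM on poplar wood and 45.9, 40.6 and 34.9 FPKM on PDA (change 1.81, SE 0.26, adjusted p = 0.00352). Leaving out PDA replicates 1, 2 and 3 in turn gave 1 rise each and 1, 1 and 2 falls, while the omission of poplar wood replicate 1 gave 2 falls and that of replicate 3 gave 4 rises. Of 53 tested ABC and multidrug transporters 2 rose (3.77%) and 7 fell (13.2%), both below the shares of all genes. Without poplar wood replicate 2 or any 1 of the PDA replicates 1 rose and 3 to 5 fell. Of 17 tested genes of phosphate acquisition 1 rose and 0 fell, and 0 rose without poplar wood replicate 2 or PDA replicates 1 or 2.

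Among transcription factors more fell than rose, in a count that depended on scaling. Of 143 tested 3 rose and 25 fell, a share of falls of 17.5% beside 15.1% of all genes, whereas median-of-ratios scaling gave 6 rises and 14 falls. Falls numbered 12, 10 and 14 without PDA replicates 1, 2 and 3, each with 1 rise, and 28 without poplar wood replicate 1 and PDA replicate 2 together. RIM101 (A04452), the pH-response factor also known as pacC, had 60.1, 148 and 60.3 FPKM on poplar wood and 1584, 1499 and 1418 FPKM on PDA and fell by 4.19 (SE 0.37, adjusted p = 0.000845). The GATA factor sreA (A08176), which represses iron uptake in Aspergillus, was chosen after its values were seen. It had 293, 281 and 294 FPKM on poplar wood and 923, 802 and 709.9 FPKM on PDA and fell by 1.48 (SE 0.21, adjusted p = 0.00337). The 3 genes described as acu-15, the activator of acetate use in Neurospora, fell by 1.11 to 1.40 on the log2 scale and were chosen after their values were seen. The calls of A11357 and A15776 were lost under median-of-ratios scaling and without any library but poplar wood replicate 3 (adjusted p of 0.0102 to 0.115, log2 fold change -1.21 to -0.85). Both genes described as CUF1, a copper-responsive factor of yeasts, rose. The CUF1 copy A17766 had 138, 94.4 and 33.0 FPKM on poplar wood and 17.8, 18.1 and 21.5 FPKM on PDA (change 1.93, SE 0.49, adjusted p = 0.0264), and the calls of both copies were lost without poplar wood replicate 2 or any 1 of the PDA replicates (adjusted p of 0.0683 to 0.095).

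Genes described as pheromone receptors, the membrane proteins by which mating partners are sensed, or as mating-type proteins included large changes in both directions. Of 140 genes with such a description 88 were tested, 12 rose (13.6%) and 9 fell (10.2%). Of the 88, 6 passed the filter through poplar wood alone and 1 through PDA alone, and among the other 81 genes 9 rose and 8 fell. The receptor PRA1 (A17676) had 38.8, 45.6 and 101 FPKM on poplar wood and 0.573, 1.15 and 2.58 FPKM on PDA and rose by 4.64 (SE 0.45, adjusted p = 0.00103). Another PRA1 copy, A10316, chosen after its values were seen, had 50.2, 58.1 and 78.6 FPKM on poplar wood and 1.42, 2.34 and 2.24 FPKM on PDA and rose by 4.39 (SE 0.27, adjusted p = 0.000462). The receptor BAR2 copy A16932 had 3.75, 4.59 and 1.25 FPKM on poplar wood and 129, 154 and 169.9 FPKM on PDA and fell by 5.27 (SE 0.37, adjusted p = 0.000583). The BAR2 copy A14818 had 6.74, 6.11 and 2.30 FPKM on poplar wood and 137, 149 and 157 FPKM on PDA and fell by 4.71 (SE 0.35, adjusted p = 0.000589). Other BAR2 copies rose, among them A01832 with 30.2, 65.3 and 57.3 FPKM on poplar wood and 3.96, 5.80 and 6.94 FPKM on PDA (log2 fold change 2.94), chosen after its values were seen. The count that rose was 7 without poplar wood replicate 2 and without PDA replicates 1 or 2. Against Chinese fir wood the call of A16932 was absent, at -0.22 (adjusted p = 0.63), and against rice straw it was lower by 4.47 (log2 fold change -4.47, adjusted p = 2.45e-06).

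Of 15 tested hydrophobins, small proteins that coat aerial hyphae, 2 rose and 0 fell, or 1 and 0 without poplar wood replicate 2 or any 1 of the PDA replicates. The hydrophobin SC3 (A09953) had 73.4, 120.4 and 347 FPKM on poplar wood and 11.5, 9.88 and 10.7 FPKM on PDA and rose by 3.65 (SE 0.52, adjusted p = 0.0035). Among 79 tested enzymes of the fungal wall 9 rose (11.4%) and 12 fell (15.2%), the falls at the share of all genes, or 3 and 3 when PDA replicate 2 was left out and 5 and 3 when PDA replicate 1 was. Of the wall enzymes that rose, 1 passed the filter through poplar wood alone and had to lie higher there. The chitin deacetylase CDA3 (A07689), which turns chitin into chitosan, had 242, 94.9 and 205 FPKM on poplar wood and 671, 742 and 793 FPKM on PDA and fell by 2.12 (SE 0.36, adjusted p = 0.00645). The glucan synthase FKS1 (A16045) had 121, 174 and 169 FPKM on poplar wood and 66.8, 75.0 and 73.1 FPKM on PDA (change 1.08, SE 0.23, adjusted p = 0.0143), a rise lost without poplar wood replicate 2 or any 1 of the PDA replicates (adjusted p of 0.0503 to 0.0755). Of 30 tested genes of sterol synthesis 1 rose and 2 fell, with 0 falls without any 1 of the PDA replicates, and 4 rises without poplar wood replicate 1 or 4 falls without replicate 3. The sterol gene that rose passed the filter through poplar wood alone and had to lie higher there, and among the other 29 genes 0 rose. Of 11 synthases of secondary metabolites 0 rose and 2 fell. The polyketide synthase alt5 (A13976) had 117, 83.4 and 72.9 FPKM on poplar wood and 278, 279 and 268 FPKM on PDA and fell by 1.61 (SE 0.24, adjusted p = 0.004). The calcium pump cta3 (A03378), outside these lists, had 3.48, 7.67 and 3.01 FPKM on poplar wood and 232, 178 and 144 FPKM on PDA and fell by 5.08 (SE 0.35, adjusted p = 0.000583).

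The most abundant transcripts shifted too. The 10 most abundant genes took 9.73%, 8.61% and 8.70% of the summed FPKM on poplar wood and 4.67%, 5.09% and 5.48% on PDA. The gene with the highest level, A15256, which has no description, had 17985, 15742 and 13896 FPKM on poplar wood and 4587, 4599 and 4654 FPKM on PDA and rose by 1.77 (SE 0.22, adjusted p = 0.00223). The gene priA (A04984), named after a protein of mushroom primordia, had 8169.5, 4309 and 5077 FPKM on poplar wood and 1136, 1092 and 1109 FPKM on PDA and rose by 2.34 (SE 0.29, adjusted p = 0.00212). The chromosomal protein nhp-1 (A02287), a DNA-bending factor, had 2083, 4085 and 4395 FPKM on poplar wood and 686, 781 and 889.9 FPKM on PDA and rose by 2.10 (SE 0.33, adjusted p = 0.00475). Against Chinese fir wood A15256 differed by -0.04 (adjusted p = 0.885), while nhp-1 was higher on poplar wood by 2.0 (adjusted p = 0.000217).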

How the data were processed

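The deposited table gave the FPKM of each gene, computed by the authors before deposit. Tools named in the submitters' processing notes are DESeq2, HTSeq, HISAT2 and fastp. Their versions and roles and the genome build are not given in the sources used here. Values were taken as log2(FPKM + 1) without further scaling, and the 3 poplar wood and 3 PDA libraries were fitted with limma 3.58.1 (R 4.3.3; eBayes with a mean-variance trend). A gene was called at a p under 0.05 after Benjamini-Hochberg adjustment across the 13614 genes, with a fold change of at least 1 on the log2 scale in either direction. Contrasts with Chinese fir wood and rice straw came from 1 fit of 12 libraries. Whole reads were worked back from the FPKM steps for 16059 of 16059 genes within 0.001 read and were used for depth and a voom alternative, which called 3260 genes.

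The 47 gene lists are patterns on descriptions. Members and lists were chosen with earlier results of these data known, and patterns were corrected once the descriptions had been read. Genes named are the 10 largest rises and 10 largest falls with a description, at least 10 FPKM in the higher group and no overlap between groups, in each list the called member with the highest level in each direction, the 10 most abundant genes on each medium, the 6 described genes with the widest range on poplar wood, and all members of lists of 4 or fewer. The text names a subset, and genes outside the rule are marked as such. Same-numbered replicates were not treated as pairs. Tables were drawn up with Python 3.11.15, numpy 2.4.6, pandas 2.3.3 and matplotlib 3.10.9.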

Additional observations from a re-analysis of the deposited data

How the results depend on the processing

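Of the genes called in the comparisons with PDA, Chinese fir wood and rice straw, 0 changed sign under any alternative run. Every list member called against PDA had groups that did not overlap. For these members, leaving out a library or changing the pseudocount, filter or threshold could not change the sign. The balance of rises and falls within a list could turn (peptidases, 16 and 19, gave 21 and 13 after median-of-ratios scaling). Leaving out 1 library at a time gave 1486 to 3616 genes called against PDA, 426 to 1369 higher and 1060 to 2509 lower, 3000 to 4321 against Chinese fir wood and 3788 to 4368 against rice straw (omissions of Chinese fir wood and rice straw libraries were chosen after seeing the data). By list these ranges were 8 to 14 class II peroxidases higher, 7 to 11 xylan enzymes higher, 11 to 18 glycolysis genes lower, 7 to 12 pentose phosphate genes lower, 33 to 42 peroxisome and fatty acid genes lower, 9 to 23 peptidases higher, 10 to 16 glutathione transferases lower, 10 to 29 transcription factors lower and 18 to 64 ribosome biogenesis genes higher. Quantile normalisation gave 1439 genes higher, 25 peptidases higher and 15 transcription factors lower, and median-of-ratios scaling 14 transcription factors lower. A pseudocount of 5 gave 2029 genes against Chinese fir wood, 2633 against rice straw and 7 peroxidases higher, and a filter at 5 FPKM also gave 7 peroxidases. Fewer genes or a smaller scale for low genes are part of these alternatives, and the cause of the other shifts was not tested.

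The remaining alternatives gave 3222 calls against PDA (pseudocount 0.1), 2078 (pseudocount 5), 2755 (no filter), 2635 (filter at 5 FPKM), 3743 (no fold threshold), 3556 (12 libraries in 1 fit), 3107 (TPM), 2474 (array weights), 2805 (1 variance per group) and 3260 (voom). Of the 107 named genes, 36, 41 and 30 lost their call without PDA replicates 1, 2 and 3 and 26 without poplar wood replicate 2. Same-numbered libraries correlated at -0.10, 0.01 and -0.16 after removal of the group means. With 3 libraries a group, these values cannot show whether the cultures were paired by number. With the replicate number as a block 2708 genes were called against PDA. Precision is limited by 3 cultures a group and by the wide spread on poplar wood.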

Other observations

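Genes with a description made up 56.8% of those that rose and 55.2% of those that fell, beside 55.7% of all tested genes. Genes without one were thus called at about their share of the tested genes. The undescribed genes given here were chosen after their values were seen. Of the genes that rose, 401 had no description, 104 of them with a mean of 100 FPKM or more on poplar wood. Of the genes that fell, 923 had none, 169 of them with 100 FPKM or more on PDA. A01095, with a coding length of 567 bp, had 623, 2691 and 1068 FPKM on poplar wood and 15.8, 21.4 and 34.8 FPKM on PDA (limma, change on the log2 scale 5.67, SE 0.55, adjusted p = 0.00103). A19453, of 1893 bp, had 67.9, 73.1 and 195 FPKM on poplar wood and 0.197, 0.853 and 0.764 FPKM on PDA (change on the log2 scale 5.99, SE 0.44, adjusted p = 0.000589). It passed the filter through poplar wood alone and had to lie higher there. A10118, of 804 bp, was highest in poplar wood replicate 3, with 316, 502 and 1741 FPKM on poplar wood and 19.3, 17.0 and 19.5 FPKM on PDA (change on the log2 scale 5.06). Among those that fell, A02239, of 399 bp, had 130.1, 156 and 14.1 FPKM on poplar wood and 2219, 3252 and 3967 FPKM on PDA (change on the log2 scale -5.50, SE 0.84, adjusted p = 0.00435). These calls were kept without any 1 of the 6 libraries.

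Some called genes differed widely among the poplar wood cultures. The gene rds1 (A05355) had 11.8, 73.0 and 439.9 FPKM on poplar wood and 2.15, 1.33 and 3.14 FPKM on PDA, and its copy A12469 had 24.3, 86.0 and 642 FPKM on poplar wood and 7.49, 6.53 and 8.86 FPKM on PDA. The adenylate-forming reductase nps10 (A18353) ran the other way across the poplar wood cultures, with 869.7, 81.5 and 37.2 FPKM on poplar wood and 4.47, 5.94 and 6.04 FPKM on PDA. The calls of all 3 were lost without poplar wood replicate 2 and without any 1 of the PDA replicates (limma, adjusted p of 0.0501 to 0.0982). An undescribed gene, A00641, varied among PDA cultures instead, with 0.910, 1.75 and 1.14 FPKM on poplar wood and 359, 183 and 5.28 FPKM on PDA, in the same order of PDA libraries as the phosphoketolases, and its call was lost when any library but PDA replicate 3 was left out (adjusted p of 0.0541 to 0.099).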
